A study of Homo sapiens with 24 samples.

Results

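The 39 HOX cluster genes were picked out of the 25702 genes counted in IMR90 ER:HRAS(G12V) cells by their symbol, HOXA, HOXB, HOXC or HOXD followed by a number, so that the antisense RNAs of the clusters were left out. HOX genes encode homeodomain transcription factors that give cells their position along the axes of the body. In each cluster the genes lie in a fixed order, from the low numbers, which act towards the head, to the high numbers, which act towards the tail and the tips of the limbs, and cultured fibroblasts keep much of the HOX pattern of the site they came from. HOX proteins bind DNA together with the TALE homeodomain proteins of the PBX and MEIS families, and retinoic acid, made and degraded by neighbouring enzymes, is a known regulator of the low-numbered genes.

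IMR90 cells are human foetal lung fibroblasts, and every group carried retroviral ER:HRAS(G12V), a fusion of the oestrogen receptor with oncogenic RAS that is inactive until 4-hydroxytamoxifen (4OHT) is added and that then drives the cells into RAS-induced senescence (RIS). Growing cells carried the empty MSCV vector and received no 4OHT, and shHMGA1 cells carried a miR30-based hairpin against HMGA1, an architectural protein of AT-rich chromatin, and also received no 4OHT. RIS cells carried the empty vector and RIS+shHMGA1 cells the hairpin, and both were given 4OHT for 6 days. Each of the 4 groups had 6 biological replicates, sequenced as polyadenylated RNA, and all were infected populations of 1 cell line, in which 4OHT and active RAS cannot be told apart.

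The total count per library lay between 8698070 and 23103424. HMGA1 lay between 639 and 861 CPM (counts scaled to the library size) in the 12 libraries with empty vector and between 54.4 and 262 CPM in the 12 with the hairpin, without overlap. Principal component analysis of log2 CPM gave a first component with 73.9% of the variance, on which growing replicate 4 lay at 77.3, above the 5 RIS libraries other than replicate 2 (16.8 to 62.1), and RIS replicate 2 lay at -77.1, within the range of the 5 growing libraries other than replicate 4 (-84.3 to -57.2). Both went against their labels in this way and were kept in their labelled groups, and tests whose groups hold them are given with and without them. They were picked out in these same data for lying against the trend with 4OHT. Leaving them out therefore favours smaller p-values and clearer separation of groups, most directly in RIS against growing. All 9 fibroblast markers were expressed, as were TBX2, TBX5 and FOXF1 of lung mesenchyme, whereas TBX4 reached at most 0.257 CPM. The summed epithelial, endothelial and immune lists reached at most 1.35, 2.65 and 1.38 CPM, and of 4 neural markers only TUBB3, which is not confined to neurons, was expressed.

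The HOX signal of these lung fibroblasts came almost entirely from the HOXB cluster. Of the 39 genes, 13 passed the low-count filter and were tested, 13 had reads but too few, and 13 had no read in any of the 24 libraries. The HOXB cluster held 7 of the tested genes (HOXB2 to HOXB8) and 70463 of the 73296 HOX reads, the HOXA cluster 4 (HOXA3, HOXA4 and HOXA5 among them) and 1598 reads, the HOXC cluster 2 (HOXC6 and HOXC8) and 1221 reads, and the HOXD cluster none and 14 reads. The 13 genes at 0 were HOXA13, HOXB1, HOXB13, HOXC10 to HOXC12, HOXD1, HOXD3, HOXD4 and HOXD9 to HOXD12, and of the remaining genes numbered 13, HOXC13 had 1 read and HOXD13 had 2 over all libraries. No read in 24 libraries allows up to 0.0107 CPM (3 counts over all libraries), for counting error only. PBX2 and RXRB, genes that most cells use, were also listed at 0 in every library, so a 0 in these counts is not shown to mean that the RNA was absent.

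**Figure D1:**
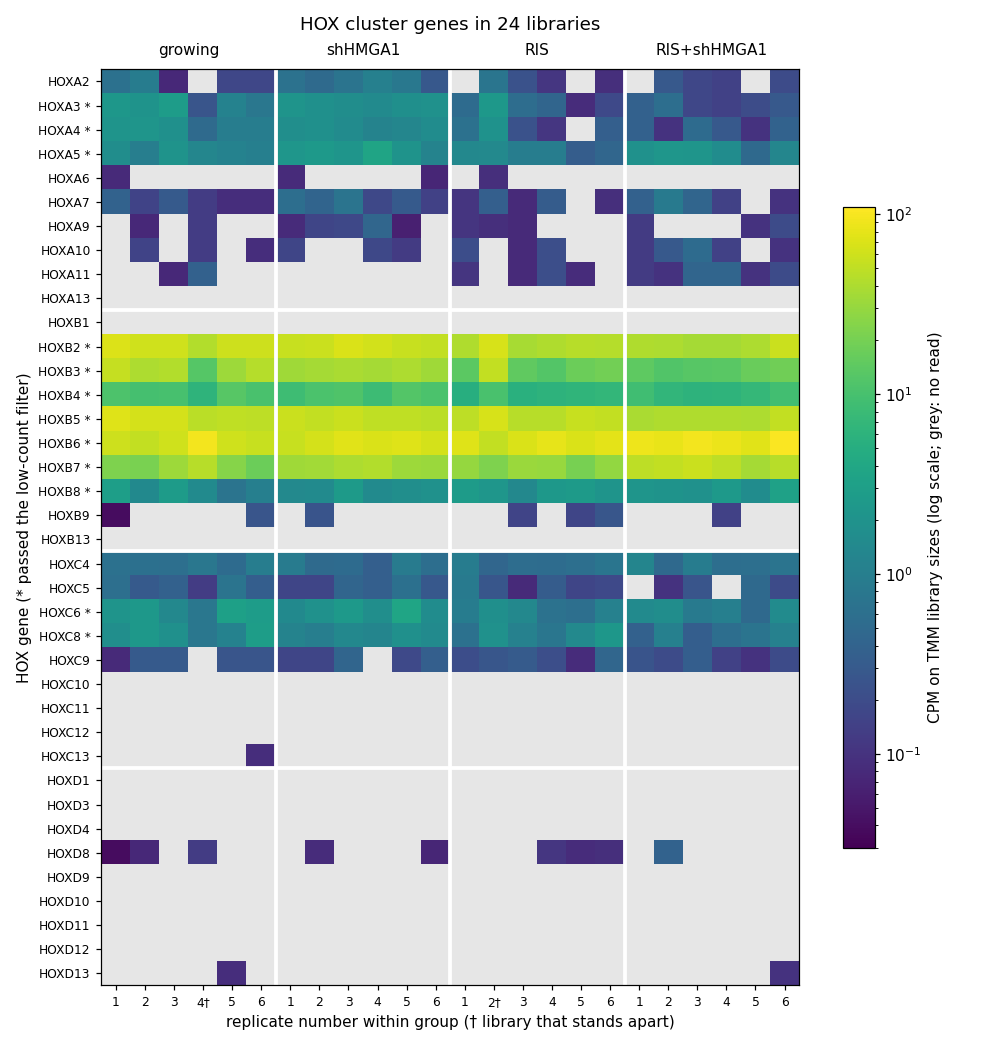
CPM of HOX genes (rows, by cluster, with an asterisk for those that passed the filter) in the 24 libraries (columns, by group and replicate), on a log colour scale with grey for no read. The HOXB2 to HOXB7 rows stand out in every library, the HOXD rows are nearly empty, and the columns of growing replicate 4 and RIS replicate 2 (daggers) differ from their neighbours at HOXA3, HOXA4 and HOXB3.

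The 13 genes with reads that failed the filter lay close to the detection limit, since 3 counts in a library corresponded to 0.119 to 0.439 CPM. HOXC4 was the most often read of them, with 1 or more reads in all 24 libraries and a highest count of 16, followed by HOXC5 (22 libraries, highest count 15), HOXA7 (22, 10), HOXC9 (22, 5), HOXA2 (19, 16), HOXA10 (14, 6), HOXA9 (13, 5), HOXA11 (12, 5) and HOXD8 (9, 4). HOXB9 was read in 7 libraries, HOXA6 in 4, HOXD13 in 2 and HOXC13 in 1, each at 3 counts or fewer. HOXA11, a limb and urogenital gene, had 1 to 5 reads in each of the 6 RIS+shHMGA1 libraries and none in the 6 shHMGA1 libraries. It had 0 to 3 reads in the growing libraries and 0 to 2 in the RIS libraries. Of its exonic length, 27.2% overlaps an antisense gene. HOXA11 was picked out after the values were seen, and the share of all genes that split in this way was not computed. None of these 13 genes was tested.

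Per kilobase of transcript, 6 HOXB genes stood above all other HOX genes in growing cells. HOXB2 (median 35.4 CPM per kb), HOXB6 (35.4) and HOXB5 (30.6) led, followed by HOXB7 (17.2), HOXB3 (12.5) and HOXB4 (5.19). Each neighbour in this order overlapped the next, down to HOXB4, whose lowest library lay above the highest of HOXC6 (median 1.36 CPM per kb). Without growing replicate 4, HOXB5 also lay above HOXB7 (lowest 25.9 against highest 24.03 CPM per kb) and HOXB3 above HOXB4 (10.02 against 6.61) without overlap. HOXB2 and HOXB3 are hindbrain and neck genes in the embryo, and HOXB5, HOXB6 and HOXB7 pattern the trunk, with HOXB5 known from lung branching. HOXB6 came first in the other 3 groups, at 39.5 CPM per kb in shHMGA1 and 42.8 in RIS, in both with overlap with the next gene, and at 52.1 in RIS+shHMGA1 without overlap with HOXB7 (35.9). Without RIS replicate 2 it stood apart in RIS as well (lowest 40.6 against highest 30.04 for HOXB5). In RIS+shHMGA1 HOXB2 (23.6) and HOXB5 (22.3) followed, HOXB3 lay at 4.25, and HOXA3 was last at 0.0823. The level per kilobase uses the canonical transcript, and other transcripts of the same gene would shift it.

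The sum over all HOX genes was 269 ± 23.98 CPM in growing cells and 276 ± 20.9 CPM in shHMGA1, and 235 ± 27.5 and 253 ± 24.7 CPM after 4OHT in RIS and RIS+shHMGA1 (SD, n = 6), and the ranges of all 4 groups overlapped. The HOXB cluster held 95.8% ± 1.02 of this sum in growing cells and 95.3% ± 0.403 in shHMGA1, and 97.1% ± 0.870 and 97.2% ± 0.6254 in RIS and RIS+shHMGA1. The HOXA share was 2.22% ± 0.777, 2.95% ± 0.413, 1.34% ± 0.827 and 1.54% ± 0.496 in the same order, and that of HOXC 1.96%, 1.71%, 1.55% and 1.20%. HOXD held at most 0.159% in any library. Without growing replicate 4 and RIS replicate 2 the mean HOXA share was 2.41% in growing cells and 1.05% in RIS, and that of HOXB 95.4% and 97.4%.

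The sequence before the start of HOXA3 is shown because this gene fell with 4OHT in RIS+shHMGA1 against shHMGA1, the most of the HOX genes described. It is the 250 bases before the start of the canonical transcript on GRCh37 (hg19), chr7:27192203-27192452 on the minus strand, written in the direction of transcription. This start lies beyond HOXA4, HOXA5 and HOXA6 in the cluster, and its use in these cells was not tested. The window holds no match to the motifs searched, which capitals would mark.
HOXA3: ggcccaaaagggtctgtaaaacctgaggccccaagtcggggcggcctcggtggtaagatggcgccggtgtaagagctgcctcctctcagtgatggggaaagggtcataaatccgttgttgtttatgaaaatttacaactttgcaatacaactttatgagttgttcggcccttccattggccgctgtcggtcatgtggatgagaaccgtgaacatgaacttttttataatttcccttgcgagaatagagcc

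The letters searched, on both strands, were TGATNNAT (a PBX-HOX composite motif), TGANTCA (AP-1) and AGGTCA (retinoic acid receptor motif), which are in 4.17%, 4.70% and 9.91% of the 250-base windows of 19862 annotated genes. Among the tested members named here, HOXB7 held 1 PBX-HOX match, HOXB2 held 1 AP-1 match, and HOXA5 and HOXB5 held 1 AGGTCA match each. Some untested members also held matches. These are descriptions of letters and not of binding.

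The effect of 4OHT was first compared between the 2 hairpin groups, RIS+shHMGA1 against shHMGA1, which hold neither of these libraries. RIS+shHMGA1 replicates 5 and 6 lay somewhat lower on the first component (52.5 and 58.2) than the other 4 (78.5 to 84.1) and had less HMGA1 (59.98 and 75.1 against 197 to 262 CPM). RIS replicates 5 and 6 also lay lower on it (16.9 and 22.2) than replicates 1, 3 and 4 (56.0 to 62.1). In shHMGA1, replicates 5 and 6 also had less HMGA1 (58.1 and 54.4 against 98.7 to 143 CPM). The growing and shHMGA1 libraries were not split by number on the first component, nor RIS by HMGA1. The part of these splits in the results was not tested beyond leaving out each replicate number. HOXA3, HOXA4 and HOXB3 fell, and none of the 13 tested HOX genes rose past the thresholds, an adjusted p under 0.01 and a log2 fold change over 0.58 in size (edgeR quasi-likelihood test over all 24 libraries, Benjamini-Hochberg). The 3 of 13 genes stand beside 39.1% of all 13356 tested genes that passed in either direction and 19.5% that fell, so their number is near the background. The median log2 fold change was -0.50 over the 13 HOX genes and -0.02 over all genes tested, and it was -1.47 for the 4 HOXA genes, -0.29 for the 7 HOXB genes and -0.91 for the 2 HOXC genes. In these bulk libraries, fewer cells that express a gene and less RNA per cell cannot be told apart.

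HOXA3, a gene of the neck and throat in the embryo, lay at 1.53 to 2.08 CPM (median 1.82) in shHMGA1 and at 0.146 to 0.590 CPM (median 0.249) in RIS+shHMGA1. Its log2 fold change was -2.54 (SE 0.588, adjusted p = 0.0011). The groups did not overlap, and the low group rests on few reads. HOXA4, its neighbour in the cluster, lay at 1.17 to 1.85 CPM (median 1.59) in shHMGA1 and at 0.0984 to 0.521 CPM (median 0.337) in RIS+shHMGA1. Its log2 fold change was -2.32 (SE 0.595, adjusted p = 0.0023), again without overlap, and its adjusted p was 0.011 without the libraries numbered 1. In the annotation, 13.2% of the exonic length of HOXA3 and 32.1% of that of HOXA4 overlap other genes on the same strand, and 20.8% and 15.8% overlap antisense genes, so with the strand setting of the counting not given their reads cannot be fully told apart from those of neighbours. HOXB3, the paralogue of HOXA3 and far better measured, lay at 33.7 to 40.2 CPM (median 36.2) in shHMGA1 and at 11.7 to 18.8 CPM (median 14.0) in RIS+shHMGA1. Its log2 fold change was -1.32 (SE 0.307, adjusted p = 0.0013), and the groups did not overlap. Of the exonic length of HOXB3, 11.9% overlaps antisense genes, so the limit of the strand setting holds for that part of it too.

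The other HOX genes did not pass both thresholds in this comparison. HOXB2 had a log2 fold change of -0.48 (adjusted p = 0.0057), under the fold threshold, HOXB4 -0.50 (adjusted p = 0.019) and HOXB5 -0.29 (adjusted p = 0.039). HOXB6 lay at 55.1 to 76.3 CPM (median 66.3) in shHMGA1 and at 76.6 to 103.8 CPM (median 87.3) in RIS+shHMGA1, a log2 fold change of 0.41 (SE 0.134, adjusted p = 0.012). Every RIS+shHMGA1 library lay above every shHMGA1 library at HOXB6, the reverse of the 3 genes that fell, and groups without overlap occurred at 43.4% of all genes tested. HOXB7 had a log2 fold change of 0.40 (adjusted p = 0.051) and HOXB8 0.33 (adjusted p = 0.31). Among the low genes, HOXA5, a gene of the developing lung, had -0.49 (adjusted p = 0.19), HOXC6 -0.87 (adjusted p = 0.031) and HOXC8 -0.96 (adjusted p = 0.024). Without growing replicate 4 and RIS replicate 2, which enter this comparison only through the shared spread, the same 3 genes fell (adjusted p = 2.3e-06, 2.1e-05 and 3.7e-09 for HOXA3, HOXA4 and HOXB3) and none rose, beside 44.4% of all genes called and 21.9% lower.

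With empty vector, RIS against growing, none of the 13 HOX genes passed with all libraries, as none of the 13356 genes did (0% called), although 7 of the 13 had an unadjusted p under 0.05, as had 4407 of all genes, and DESeq2 called 829 genes but no HOX gene. Without growing replicate 4 and RIS replicate 2, 6 HOX genes fell and none rose, with HOXA3, HOXA4, HOXB3, HOXB4 and HOXC6 among them. In that fit 39.8% of all genes were called and 20.5% fell. The 6 of 13 were near the share called in either direction and above the share that fell, a difference that was not tested. The median log2 fold change over the 13 genes was -0.80 without the pair of libraries and -0.58 with them, against -0.01 over all genes in both fits.

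HOXB3 lay at 12.5 to 53.9 CPM (median 41.3) in growing cells and at 12.3 to 52.5 CPM (median 16.1) in RIS. The extremes against the trend were growing replicate 4, the lowest of its group at 12.5 CPM, and RIS replicate 2, the highest of its group at 52.5 CPM, and the other 5 libraries of each group did not overlap (33.1 to 53.9 against 12.3 to 19.1 CPM). Its log2 fold change was -0.80 (SE 0.301, adjusted p = 0.069) with all libraries and -1.46 (SE 0.139, adjusted p = 3e-09) without the pair. HOXA3 and HOXA4 showed the same picture at low counts. HOXA3 lay at 0.257 to 2.83 CPM (median 1.57) in growing cells and at 0.0846 to 2.36 CPM (median 0.482) in RIS, with log2 fold changes of -1.21 (adjusted p = 0.096) and -2.36 (adjusted p = 9.6e-06) with and without the pair. HOXA4 lay at 0.514 to 2.17 CPM (median 1.40) and at 0 to 2.00 CPM (median 0.303), with -1.39 (adjusted p = 0.068) and -2.61 (adjusted p = 1.3e-05). In both genes RIS replicate 2 held the highest value of its group and growing replicate 4 the lowest of its own.

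HOXB4, known from blood stem cells, lay at 6.30 to 13.2 CPM (median 10.4) in growing cells and at 5.17 to 10.5 CPM (median 6.23) in RIS, and its log2 fold change was -0.60 (adjusted p = 0.031) with all libraries and -0.87 (SE 0.143, adjusted p = 1.4e-05) without the pair. In the hairpin groups it lay at 8.46 to 12.2 CPM (median 10.7) in shHMGA1 and at 5.99 to 9.23 CPM (median 6.91) in RIS+shHMGA1, with overlap. HOXB2, by contrast, had an adjusted p of 0.00012 without the pair but a log2 fold change of -0.57, just under the fold threshold, and -0.35 (adjusted p = 0.088) with all libraries. Its levels were 42.8 to 72.4 CPM (median 59.5) in growing cells, 51.5 to 68.8 (median 56.6) in shHMGA1, 37.9 to 67.8 (median 43.1) in RIS and 36.6 to 56.4 (median 39.7) in RIS+shHMGA1, and the highest RIS value was again that of replicate 2.

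HOXB5 lay at 46.3 to 74.0 CPM (median 56.9) in growing cells, 47.6 to 57.9 (median 51.5) in shHMGA1, 44.8 to 66.8 (median 50.5) in RIS and 39.3 to 52.1 (median 41.5) in RIS+shHMGA1, and it passed in no comparison. HOXB6 lay at 52.4 to 95.8 CPM (median 59.3) in growing cells and at 51.9 to 80.1 CPM (median 71.7) in RIS. The highest growing library was replicate 4 and the lowest RIS library replicate 2, and without them all RIS libraries lay above all growing libraries, with a log2 fold change of 0.37 (SE 0.0983, adjusted p = 0.0026), under the fold threshold. Without the pair, 6 tested genes were lower in every RIS library than in every growing library (HOXA3, HOXA4, HOXB2, HOXB3, HOXB4 and HOXC6) and HOXB6 was higher in every one, beside 35.2% of all genes without overlap. With all libraries no HOX gene was without overlap, beside 0.367% of all genes.

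**Figure D2:**
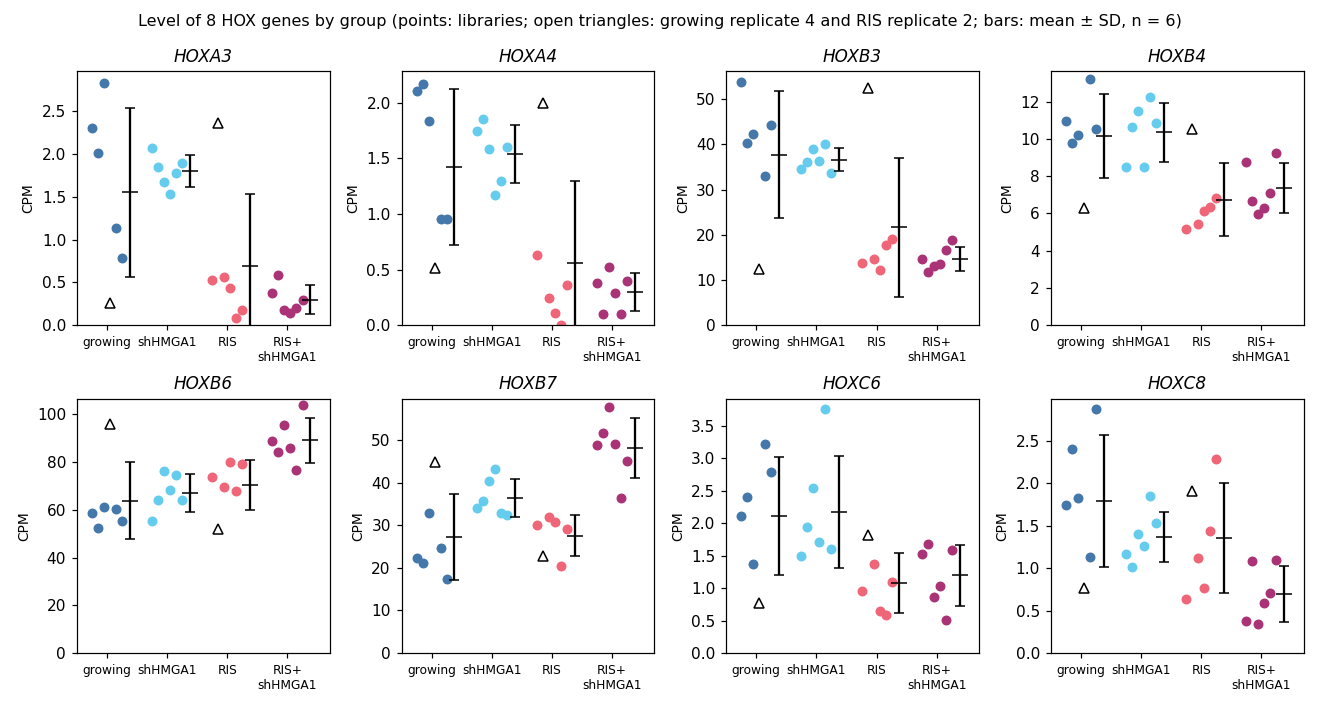
CPM of 8 HOX genes in the 6 libraries of each group (points), with the mean ± SD as bars and growing replicate 4 and RIS replicate 2 as open triangles. HOXA3, HOXA4 and HOXB3 sit low in RIS+shHMGA1 and in 5 of 6 RIS libraries, HOXB6 and HOXB7 sit highest in RIS+shHMGA1, and the triangles lie against the trend of their group at HOXA3, HOXA4, HOXB3 and HOXB6.

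RIS against growing and RIS+shHMGA1 against shHMGA1 share no library. The sign of the log2 fold change was the same in both for 13 of the 13 HOX genes, with and without the pair of libraries, and for 86.7% of all genes tested with the pair and 91.3% without it. In both comparisons the sign followed the position in the HOXB cluster: HOXB2, HOXB3, HOXB4 and HOXB5 were negative and HOXB6, HOXB7 and HOXB8 positive, also with the size factors of RLE and DESeq2, although only HOXB3 and, in RIS against growing without the pair, HOXB4 passed the thresholds, and HOXB7 in RIS against growing turned to -0.05 and -0.10 without the libraries numbered 1 or 6. The difference in effect between the vector and hairpin cells, the interaction of hairpin and RAS, passed for none of the HOX genes in either fit, where 0% of all genes passed with all libraries and 0.00749% without the pair. With all libraries 1371 genes had an unadjusted p under 0.05 for the interaction, none of them a HOX gene. The interaction of HOXA3 was -1.33 (95% interval -2.90 to 0.24), that of HOXB3 -0.51 (-1.35 to 0.32) and that of HOXB7 0.38 (-0.11 to 0.87) on the log2 scale, and intervals of this width leave room for a difference in either direction. Without the pair the 3 values were -0.18, 0.15 and 0.14, so that the sign at HOXB3 turned.

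**Figure D3:**
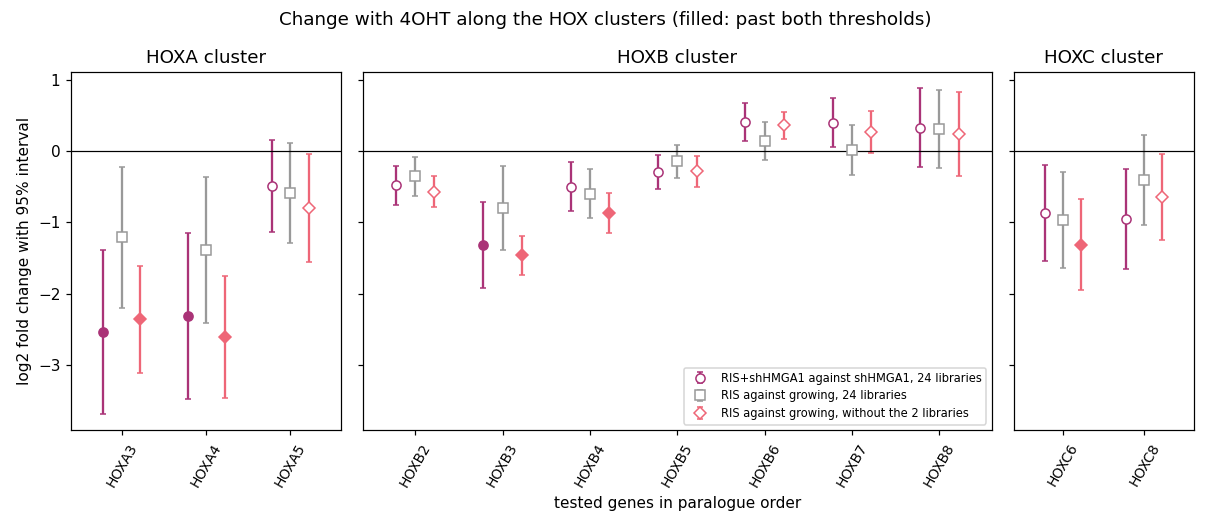
Log2 fold change with 4OHT (y axis, with 95% intervals) of tested HOX genes in paralogue order (x axis, by cluster) for RIS+shHMGA1 against shHMGA1 (circles) and for RIS against growing with all libraries (squares) and without growing replicate 4 and RIS replicate 2 (diamonds), filled where both thresholds were passed. Values are below 0 at HOXA3 to HOXA5, HOXB2 to HOXB5, HOXC6 and HOXC8 and above 0 at HOXB6, HOXB7 and HOXB8.

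Because of this order, which was noticed after the values were seen, the share of HOXB6, HOXB7 and HOXB8 in the summed HOXB CPM was computed as a description, without a test. It was 28.4 to 56.9% (median 33.3%) in growing cells, where the highest value was replicate 4 and the other 5 reached 35.5%. It was 36.9 to 42.0% (median 40.5%) in shHMGA1 and 28.0 to 51.6% (median 48.4%) in RIS, where the lowest value was replicate 2 and the other 5 began at 42.0%. In RIS+shHMGA1 it was 52.6 to 61.6% (median 57.6%), the highest of the 4 groups, so that the upper end of the expressed cluster held more of its RNA than the lower end. The single growing library at 56.9% lay inside this range.

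**Figure D4:**
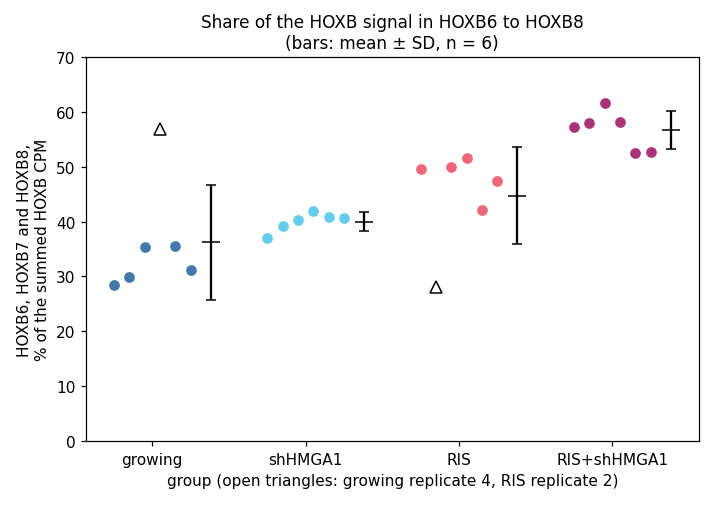
Share of HOXB6, HOXB7 and HOXB8 in the summed HOXB CPM (y axis, percent) in the 6 libraries of each group (points; open triangles are growing replicate 4 and RIS replicate 2; bars are the mean ± SD). The medians were 33.3% in growing cells, 40.5% in shHMGA1, and 48.4% and 57.6% in RIS and RIS+shHMGA1.

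The hairpin against HMGA1 was compared with the empty vector first in growing cells, where HOXB7 alone passed, and only without the pair of libraries. HOXB7, a trunk gene that is often raised in tumours, lay at 17.3 to 44.9 CPM (median 23.5) in growing cells and at 32.3 to 43.1 CPM (median 34.9) in shHMGA1. With all libraries no HOX gene passed, beside 0.27% of all genes, and HOXB7 had a log2 fold change of 0.43 (SE 0.178, adjusted p = 0.30). Without the pair of libraries it rose, by 0.62 on the log2 scale (SE 0.145, adjusted p = 0.0086), as 1 of 13 HOX genes beside 2.61% of all genes. The highest growing library was again replicate 4, and without it the growing libraries reached 32.8 CPM and still overlapped shHMGA1. The 12 other genes did not pass in either fit. HOXA5 lay at 1.01 to 2.06 CPM (median 1.21) in growing cells and at 1.16 to 3.60 CPM (median 2.22) in shHMGA1, with a log2 fold change of 0.72 (adjusted p = 0.34), and 0.68 (adjusted p = 0.10) without the pair.

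In the presence of 4OHT, RIS+shHMGA1 against RIS, HOXB7 rose and no other HOX gene passed both thresholds, beside 2.55% of all genes called. HOXB7 lay at 20.3 to 31.8 CPM (median 29.6) in RIS and at 36.4 to 57.7 CPM (median 48.9) in RIS+shHMGA1, without overlap, as was the case for 13.2% of all genes. Its log2 fold change was 0.80 (SE 0.178, adjusted p = 0.0079) with all libraries and 0.76 (SE 0.145, adjusted p = 0.0012) without the pair, where 12.5% of all genes were called. The call is close to the threshold: leaving out the libraries of any 1 replicate number other than 4 gave log2 fold changes of 0.74 to 0.84 and adjusted p of 0.016 to 0.060, and without number 4 it was 0.0024. In both hairpin groups replicates 5 and 6 had the least HMGA1 and also the lowest HOXB7. They lay at 32.8 and 32.3 CPM in shHMGA1, where the others began at 34.1 CPM. In RIS+shHMGA1 they lay at 36.4 and 44.95 CPM, where the others began at 48.7 CPM. With empty vector, replicate 6 was lowest in growing cells (17.3 CPM) and replicate 5 in RIS (20.3 CPM). How HOXB7 varied with the HMGA1 left was not tested. HOXB7 has no annotated exonic overlap with other genes. HOXB6 had a log2 fold change of 0.34 (adjusted p = 0.050), HOXA5 0.82 (adjusted p = 0.073) and HOXC8 -0.95 (adjusted p = 0.045), and without the pair 0.27 (adjusted p = 0.029), 1.01 (adjusted p = 0.039) and -0.83 (adjusted p = 0.065). This comparison shares the RIS libraries with RIS against growing and the RIS+shHMGA1 libraries with RIS+shHMGA1 against shHMGA1.

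RIS+shHMGA1 against growing, which combines 4OHT and hairpin and shares libraries with each comparison above, gave 4 lower and 1 higher HOX gene with all libraries, beside 45.9% of all genes called. HOXA3 (log2 fold change -2.38, adjusted p = 0.0015), HOXA4 (-2.26, adjusted p = 0.0022), HOXB3 (-1.36, adjusted p = 0.00087) and HOXC8 (-1.35, adjusted p = 0.0022) fell. HOXB7 rose by 0.83 (SE 0.178, adjusted p = 0.00066). Without the pair of libraries HOXC6 also fell (-0.97, adjusted p = 0.0054) and HOXB6 also rose (0.63, adjusted p = 1.9e-06), which made 7 of 13 beside 56.8% of all genes, and HOXB7 rose by 1.02. The call of HOXA3 was lost without the libraries numbered 1 or 3 (adjusted p = 0.012 and 0.016), that of HOXA4 without number 1 (0.017) and that of HOXC8 without numbers 1 or 3 (0.012 and 0.017).

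The 2 tested HOXC genes, HOXC6 and HOXC8 of the thorax, were low in all groups. HOXC6 lay at 0.772 to 3.22 CPM (median 2.25) in growing cells, 1.49 to 3.75 (median 1.82) in shHMGA1, 0.592 to 1.81 (median 1.02) in RIS and 0.502 to 1.67 (median 1.27) in RIS+shHMGA1. Its RIS against growing log2 fold change was -0.97 (adjusted p = 0.056) with all libraries and -1.31 (SE 0.325, adjusted p = 0.0012) without the pair. HOXC8 lay at 0.772 to 2.87 CPM (median 1.79), 1.01 to 1.85 (median 1.33), 0.633 to 2.28 (median 1.28) and 0.348 to 1.09 (median 0.644) in the same order, lowest in RIS+shHMGA1. HOXB8, the least expressed of the tested HOXB genes, lay between 0.696 and 3.27 CPM over all libraries and passed in no comparison. Of the untested genes, HOXA2, the hindbrain and branchial arch gene, averaged 0.331 ± 0.367 CPM in growing cells, 0.674 ± 0.267 in shHMGA1, and 0.194 ± 0.275 and 0.136 ± 0.116 in RIS and RIS+shHMGA1 (SD, n = 6).

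Several TALE cofactors of HOX proteins fell with 4OHT in the hairpin cells. Of the 9 genes listed, 7 were tested, and in RIS+shHMGA1 against shHMGA1 4 of them, with MEIS1, MEIS2 and PBX3 among them, fell and none rose, with a list median log2 fold change of -0.73 against -0.02 over all genes, where 39.1% of all genes were called and 19.5% fell. MEIS1, which joins PBX and HOX proteins on DNA, lay at 24.4 to 32.5 CPM (median 28.9) and at 5.30 to 10.7 CPM (median 6.45), a log2 fold change of -1.997 (SE 0.403, adjusted p = 0.00049). The groups did not overlap, at far higher counts than those of HOXA3 and HOXA4. MEIS2 and PBX3 had -0.73 (adjusted p = 0.0053) and -0.62 (adjusted p = 0.0017), and without the pair of libraries PKNOX2, a further TALE gene, fell as well (-1.11). In RIS against growing none of the 7 passed with all libraries and 5 fell without the pair, MEIS1 by 2.28 on the log2 scale, beside 20.5% of all genes.

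Of the 21 noncoding RNAs of the HOX clusters listed, 11 were among the genes counted and 2 were tested, HOXB-AS3, which runs antisense to the middle of the HOXB cluster, and HOTAIRM1, which is transcribed from the low-numbered end of the HOXA cluster. Neither passed in any comparison. HOXB-AS3 lay at 38.01 to 51.1 CPM (median 45.9) in shHMGA1 and at 39.9 to 56.0 CPM (median 52.1) in RIS+shHMGA1, a log2 fold change of 0.17 (adjusted p = 0.25), and 18.2% of the exonic length of HOXB6 and 3.93% of that of HOXB5 overlap antisense genes of this region. HOXB6 also shares 11.2% of its exonic length with HOXB3 on the same strand. Of the 11 genes that flank the clusters, 7 were tested and 2 fell in this comparison, beside 19.5% of all genes, with a list median of 0.04: CBX5 beside the HOXC cluster, which encodes heterochromatin protein HP1 alpha (-1.22, SE 0.298, adjusted p = 0.0018; 76.4 to 107 against 35.8 to 46.8 CPM), and LNPK beside the HOXD cluster, which shapes the endoplasmic reticulum (-0.84, SE 0.170, adjusted p = 0.00049).

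In the retinoic acid pathway, 9 of 18 listed genes were tested, and 2 fell and 2 rose with 4OHT in the hairpin cells, beside 39.1% of all genes called, with a list median of -0.46. The receptor RARG (-0.86, adjusted p = 0.00048) and the synthesis enzyme ALDH1A3 (-1.01, adjusted p = 0.00018) fell. CYP26B1, which degrades retinoic acid, rose from 2.69 to 12.5 CPM (median 8.94) to 34.0 to 51.6 CPM (median 42.3), a log2 fold change of 2.42 (SE 0.628, adjusted p = 0.0027), and RDH10, which makes its precursor, rose by 0.69 (adjusted p = 0.0023). Among 16 other regulators of mesenchymal identity, most of them homeobox genes, 9 were tested, 4 fell and 2 rose, beside the same 39.1%, with a list median of -0.45. PRRX2, a limb mesenchyme gene, lay at 17.5 to 32.5 CPM (median 19.1) in shHMGA1 and at 0.869 to 6.35 CPM (median 1.53) in RIS+shHMGA1 and fell by 3.24 on the log2 scale (SE 0.610, adjusted p = 0.00033). PITX1 (-1.53) and SHOX2 (-0.68) also fell and MSX1 (1.03) and TWIST2 (0.66) rose. Without the pair of libraries the counts of both lists in this comparison were the same. In RIS against growing without the pair, 2 retinoic acid genes fell and 2 rose, beside 39.8% of all genes called. Of the other regulators, 3 fell and 1 rose there.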

How the data were processed

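The authors deposited raw read counts per Entrez gene for each of the 24 RNA-seq libraries, whole numbers without normalisation. Per the labels and the methods, libraries were made with a stranded mRNA kit, adapters were removed with cutadapt 1.10.0, reads were mapped to hg19 with STAR 2.5.0b, reads of low mapping quality were removed, and genes were counted with Rsubread. The annotation, the strand setting and the Rsubread version are not given in the sources used here. Groups and replicate numbers were taken from the sample titles. Entrez identifiers were turned into symbols with a RefSeq table, in which 23696 of 25702 were found.

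Genes were filtered with filterByExpr by group (13356 left), scaled by TMM and fitted with edgeR 4.0.16 (limma 3.58.1, R 4.3.3) over all 24 libraries in a quasi-likelihood model of group means. Calls need a Benjamini-Hochberg adjusted p under 0.01 over all genes tested and a log2 fold change above 0.58 or below -0.58, as in the methods. CPM were computed on TMM library sizes. The SE is the unshrunken log2 fold change divided by the square root of the F statistic. Transcript lengths, overlaps and starts come from canonical GENCODE transcripts on GRCh37, and coordinates are 1-based.

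The members and gene lists were chosen with earlier results of these data known. Levels are given by group for members past the thresholds in any comparison, with or without growing replicate 4 and RIS replicate 2, and for the 5 members highest per length, HOXA5 and HOXB8 by range, untested members by highest count, and listed genes past the thresholds in RIS+shHMGA1 against shHMGA1. HOXA5 and HOXC8 in other comparisons, HOXA2 and HOXA11 were also described after their values were seen. The share of HOXB6 to HOXB8 was likewise chosen after the values were seen. Some members and listed genes are included in the counts and medians but are not reported here by name.

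Alternatives were DESeq2 1.42.0, RLE scaling, no low-count filter, a filter of at least 1 CPM in 6 samples, only the groups compared, the replicate number as a block, an FDR of 0.05, each replicate number left out, and growing replicate 4 and RIS replicate 2 left out. The model script was tested on simulated counts. No pair of libraries in a group agreed within sampling noise. The replicates are labelled biological, but whether they came from separate infections is not given, so the p-values measure the spread between these libraries. The total count per library ranged from 8698070 to 23103424, and at this depth genes under about 1 CPM rest on few reads.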

Additional observations from a re-analysis of the deposited data

Results flagged for a closer look

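The 13 tested HOX genes were examined in each of the 4 groups, 52 sets of 6 libraries, for a highest or lowest library whose gap to the nearest other was too large a part of the group's range by Dixon's criterion. Of these sets 8 did, where chance gives 2.6. RIS replicate 2 held 5 of them, as the highest of its group: HOXA3 at 2.36 CPM against 0.0846 to 0.561 in the others (gap ratio 0.79), HOXA4 at 2.00 against 0 to 0.633 (0.683), HOXB2 at 67.8 against 37.9 to 45.5 (0.746), HOXB3 at 52.5 against 12.3 to 19.1 (0.832) and HOXB4 at 10.52 against 5.17 to 6.85 (0.687). Growing replicate 4 held 1, HOXB6 at 95.8 CPM against 52.4 to 61.2 (0.797). These are the libraries that lie with the other condition on the first principal component, and what sets them apart was not tested. RIS+shHMGA1 replicate 6 held the other 2, HOXB2 at 56.4 CPM against 36.6 to 42.0 (0.725) and HOXB5 at 52.1 against 39.3 to 42.0 (0.794).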

How the results depend on the processing

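The number of HOX genes past the thresholds changed mainly with the libraries used. Without growing replicate 4 and RIS replicate 2 it was 6 in place of 0 in RIS against growing and 1 in place of 0 in shHMGA1 against growing, with HOXA3, HOXA4, HOXB3, HOXB4 and HOXC6 among the 6 and HOXB7 as the 1. In RIS+shHMGA1 against growing it was 7 in place of 5, with HOXB6 and HOXC6 added. An adjusted p under 0.05 gave 1 for RIS against growing, 2 for RIS+shHMGA1 against RIS and 5 for RIS+shHMGA1 against shHMGA1. Without a low-count filter HOXB7 missed the threshold in RIS+shHMGA1 against RIS (adjusted p = 0.011), which left 0. When each replicate number was left out in turn, the number ranged from 0 to 4 in RIS against growing (4 without number 2: HOXA3, HOXA4, HOXB3 and HOXB4; 1 without number 4: HOXB4), 0 to 0 in shHMGA1 against growing, 0 to 1 in RIS+shHMGA1 against RIS, 2 to 4 in RIS+shHMGA1 against shHMGA1, 2 to 6 in RIS+shHMGA1 against growing and 0 to 0 for the interaction. Leaving out libraries leaves fewer samples, and the cause of these shifts was not tested beyond that.

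Of the 78 pairs of a HOX gene and a comparison, 18 passed in the fit with or without the pair of libraries, 9 of them only without it. The alternatives were set against the fit with all libraries. Under DESeq2, RLE scaling, the filter of at least 1 CPM and a fit of the compared groups alone, all 18 kept their direction and side of the thresholds. The 9 that passed only without the pair thus did not pass under these either. With each replicate number left out, 91 values kept their side, 11 no longer passed and 6 passed anew. Over all 78 pairs and 997 values under alternatives the sign changed 47 times, and 0 of these concerned a value that passed. Without the pair of libraries the mean share of each cluster stayed within the SD of replicates around the mean of all libraries. The shares are not given under the other alternatives.

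The correlation of deviations from the group means was over 0.1 in 24 of 36 pairs of same-numbered libraries of different groups (mean 0.175, lowest -0.594) and in 57 of 180 pairs with different numbers (mean -0.0496). The same-numbered pairs thus lay higher on average but not in every pair. The means of the growing and RIS groups include growing replicate 4 and RIS replicate 2, which shifts the deviations there. The lowest pair was growing replicate 1 with RIS replicate 1. Between shHMGA1 and RIS+shHMGA1, which hold neither library, same-numbered pairs lay at -0.023 to 0.326. The labels tie the numbers to no shared culture or day, so the main fit does not treat them as pairing. A pairing by number is not excluded. A fit with a replicate block gave counts of 0, 0, 1, 4, 5 and 0 in the order above, HOXC8 being added in RIS+shHMGA1 against shHMGA1 (-1.04, adjusted p = 0.0053).

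Over all genes, the number called in RIS against growing was 0 with edgeR, 829 with DESeq2, 1 with the block and 5318 without the pair of libraries. In shHMGA1 against growing it was 36, against 99 with DESeq2, 349 without the pair, 23 without a filter and 5 in a fit of the compared groups alone. In RIS+shHMGA1 against RIS it was 341, against 1573, 1675, 189 and 168 in the same order and 1637 with the block. The depth limits the HOXA and HOXC genes, at most 58 reads per library at HOXA3 and 53 at HOXA4.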
